A study of Rattus norvegicus with 8 samples.

Results

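A set of 30 epithelial junction and barrier genes was followed in retinal cells that had received a plasmid for Klf4, which encodes a transcription factor with zinc fingers. They encode parts of tight junctions and desmosomes, adhesion molecules, and controllers of surface proteases, with a few regulators of epithelial trafficking, splicing and transcription. The 30 genes were listed by rat symbol, with earlier results of these data known, and gene probes were matched to them by RefSeq transcript. Of the 16581 gene symbols on the array, 29 of the 30 were present, with 37 probes, and the tight junction adaptor gene Cgn had no probe that matched.

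RNA came from retinas of Lister hooded rats on postnatal day 0 that were electroporated in vitro, kept as explants for 39 hours and dissociated. Cells positive for GFP, which marks transfected cells, were sorted from the rest before extraction. The 4 control samples received a control plasmid and the 4 Klf4 samples a Klf4 plasmid, so all 8 arrays share the electroporation, the explant culture and the sort, and they differ in the plasmid. The samples are numbered 2 to 5 in each group, and the strain carries no labelled allele. For the promoter that drives Klf4 and the backbone of the control plasmid, the sources used here give nothing. Nothing in the labels ties a sample to an animal or to an electroporation of its own. The p-values below therefore speak of the spread between these particular samples, and this may be technical. Expression was read on single-colour Agilent arrays, and a level below is the log2 signal of a probe relative to the 75th percentile of its own array. Levels are compared between groups for the same probe and not between genes.

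Epithelial sheets are held together by several kinds of contact. Tight junctions, built from claudins, occludin and junctional adhesion molecules on a scaffold of zonula occludens proteins, seal the space between cells near the apical surface. Adherens junctions join cadherins and nectins to actin, desmosomes join their own cadherins to intermediate filaments through plakoglobin, plakophilins and plakins, and hemidesmosomes fix the cell to laminin through the integrin of alpha 6 and beta 4 chains. The neural retina is itself a neuroepithelium, with a belt of adherens junctions at its outer limiting membrane, but it lacks the tight junction barrier of the adjacent pigment epithelium. KLF4 is known in skin for its part in forming the barrier.

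The arrays differed in brightness, with a 75th percentile of gene signals from 2399 to 5370, and 72.1% to 86.5% of gene spots were well above background. The number of arrays limits the precision. Both arrays numbered 5 belong to a second scan, the scanner software marked the 2 arrays numbered 4 as out of its quality limits, and control and Klf4 arrays lie in different columns of the slide, so column and group cannot be told apart. All 9 retinal progenitor genes and all 7 photoreceptor genes with a probe passed the filter on dim signals, and so did all 6 corneal and surface epithelium genes with a probe and 7 of 10 lens genes, so passing that filter does not by itself mark the tissue. The Klf4 probe read -3.27 ± 0.62 in controls and -3.00 ± 0.86 with Klf4 (SD, n = 4 each), a log2 difference of 0.27 (SE 0.46, limma adjusted p = 0.916). The sources do not place that probe inside or outside the plasmid's insert, and it is no check on the labels.

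Promoters of 4 genes described below, whose Klf4 arrays all lay above the controls, are shown as examples with and without a KLF motif. Each is the 250 bases before the RefSeq start of the gene in assembly GRCr8, 5′ to 3′ on the strand of the gene, with matches to GGGNGTG, searched on both strands, in capitals. Jup lies at chr10:85827430-85827679 on the minus strand, F11r at chr13:86405979-86406228, Perp at chr1:15361534-15361783 and Nectin4 at chr13:86335378-86335627, all 3 on the plus strand.
Jup: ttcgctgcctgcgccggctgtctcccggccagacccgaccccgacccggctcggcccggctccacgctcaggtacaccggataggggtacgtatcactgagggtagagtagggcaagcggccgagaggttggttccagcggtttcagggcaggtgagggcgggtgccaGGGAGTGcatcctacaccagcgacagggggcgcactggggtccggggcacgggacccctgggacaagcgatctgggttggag
F11r: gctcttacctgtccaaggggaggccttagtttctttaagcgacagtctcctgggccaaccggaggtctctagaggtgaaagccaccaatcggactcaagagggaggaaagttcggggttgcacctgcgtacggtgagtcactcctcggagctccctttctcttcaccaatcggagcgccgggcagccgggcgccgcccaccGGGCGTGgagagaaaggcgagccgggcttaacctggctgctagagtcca
Perp: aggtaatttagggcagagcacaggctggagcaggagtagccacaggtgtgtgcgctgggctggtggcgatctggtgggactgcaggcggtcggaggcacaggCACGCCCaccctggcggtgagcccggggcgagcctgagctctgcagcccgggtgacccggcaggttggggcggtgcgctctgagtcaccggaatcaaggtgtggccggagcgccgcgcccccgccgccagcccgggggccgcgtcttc
Nectin4: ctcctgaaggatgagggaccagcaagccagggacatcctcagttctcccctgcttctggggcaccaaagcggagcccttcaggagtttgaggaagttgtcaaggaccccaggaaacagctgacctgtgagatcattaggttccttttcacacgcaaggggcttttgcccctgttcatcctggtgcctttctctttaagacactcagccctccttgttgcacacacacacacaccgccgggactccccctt

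Counted from the start, the motif begins at position -82 in Jup, -49 in F11r and -148 in Perp, where it reads on the opposite strand, and these letters are not in the window of Nectin4. Of the 30 genes, 18 had an entry in the promoter table, and 10 of the 18 held the motif. Over all 33469 promoters of the same length, not matched in GC content, the share was 23.3%. The E-box CACCTG, searched on both strands and counted whether or not it overlapped the KLF motif, was in 11 of the 18 and in 15.9% of all promoters. Itgb4 and Evpl were not among the 18. Of the 8 junction genes described below that rose and had an entry, 4 held the KLF motif (Jup, Perp, Cd151 and Lamc1) and Crb3, Elf3, Lama5 and Nectin4 did not. A match describes the letters and is not a binding site. Spint2 and Ocln each held the KLF motif 3 times, the most of the 18, and neither gene passed the test below. The median GC content of all promoters was 51.2%, and it was 68.8% in Jup, 61.2% in F11r, 71.6% in Perp and 55.6% in Nectin4. Of the 18, all but Cldn12, Marveld2 and Tjp1 lay above that median. The motif shares of the set and of all promoters are therefore not like for like.

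Of the 29 junction and barrier genes with a probe, 3 rose with Klf4 and 0 fell. They were Itgb4, which encodes the integrin beta 4 chain of hemidesmosomes, Evpl, which encodes the plakin envoplakin, and Jup, which encodes plakoglobin. A rise or fall is a limma adjusted p under 0.05, Benjamini-Hochberg over all 30009 genes and unnamed features tested. All 29 passed the filter on dim signals, and at an unadjusted p under 0.05 there were 4, the 3 and F11r, all higher, where 11.9% of all features passed that level. Over all features tested, 3.2% were higher and 0.463% lower, 3.66% in either direction. The other 26 genes did not pass, 13 of the 29 lay above 0 and 16 below, and their median log2 difference was -0.01, against -0.07 over all features tested. All 4 Klf4 arrays lay above all 4 controls for 4 of the 29 genes, and below them for 0, against 5.69% and 4.43% of all features. Of the 13602 features with a gene symbol, 619 were higher, 86 lower, and 1981 had an unadjusted p under 0.05. Their Klf4 arrays lay above all controls for 1092 and below them for 641. Each is a larger share than over all features, so the shares here and below are low for named genes.

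**Figure D1:**
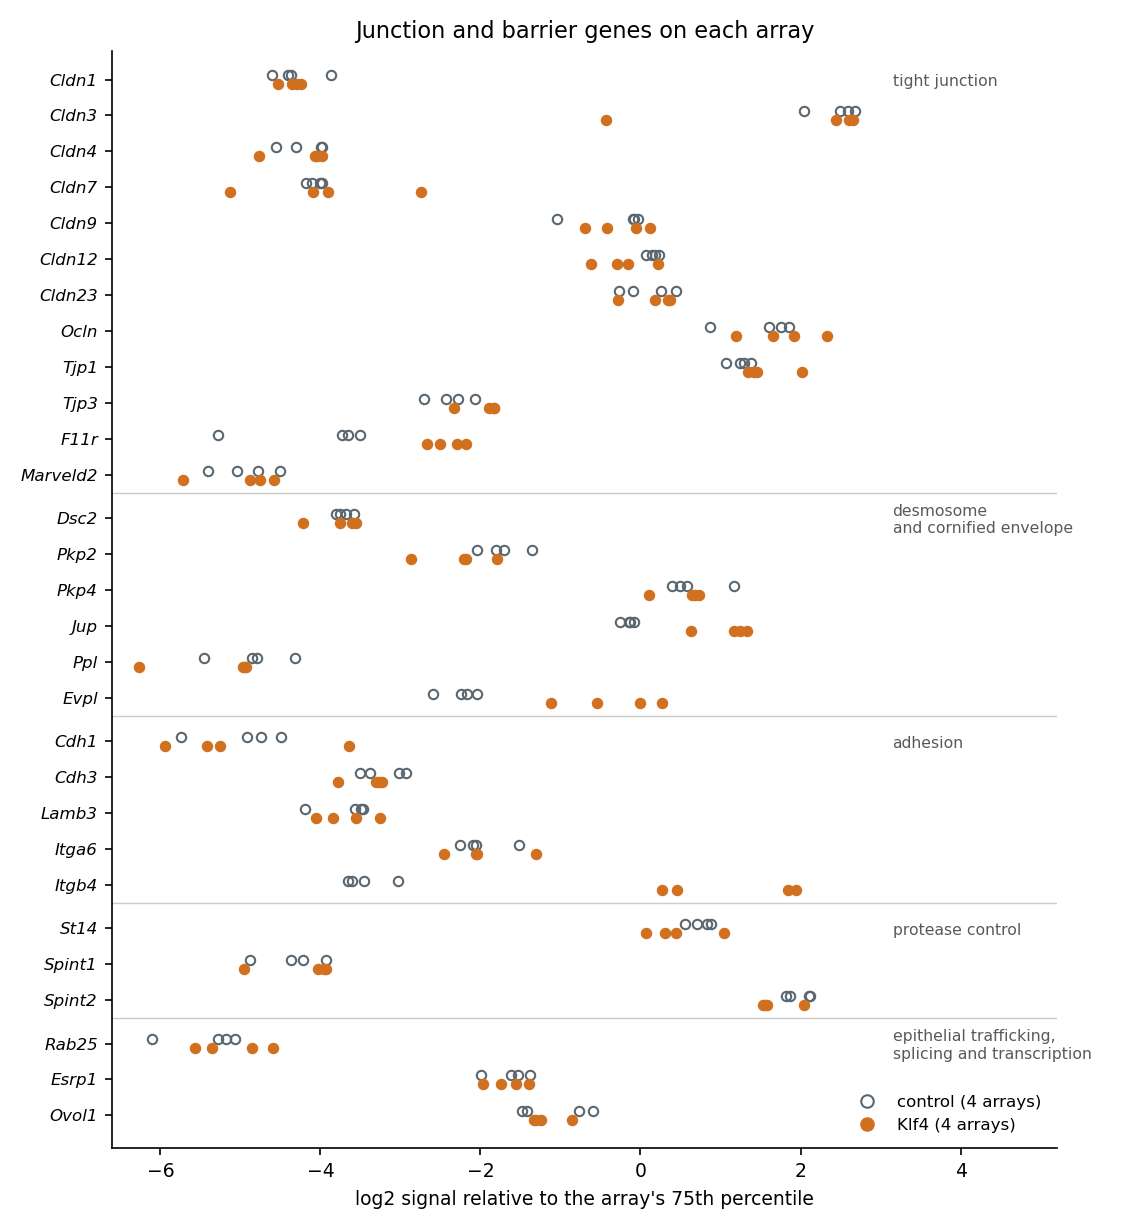
Level of each of the 29 genes on each array, as log2 signal relative to the 75th percentile of that array, with open circles for the 4 controls and filled circles for the 4 Klf4 arrays. The groups separate fully for Itgb4, Evpl, Jup and F11r, and they overlap for all others.

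Of the 5 adhesion genes 1 rose, the beta chain of the hemidesmosome integrin, and the list's median log2 difference was -0.00. Itgb4 (probe A_64_P055738) read -3.66, -3.03, -3.60 and -3.46 on control arrays 2 to 5, and 1.85, 0.46, 0.27 and 1.94 on Klf4 arrays 2 to 5. Every Klf4 array lay far above every control, and Klf4 arrays 2 and 5 lay above Klf4 arrays 3 and 4. The means were -3.44 ± 0.29 and 1.13 ± 0.89 (SD, n = 4 each), a log2 difference of 4.57 (SE 0.41, 95% interval 3.64 to 5.49, limma adjusted p = 0.000505), or 23.7-fold. Within the first scan the log2 difference was 4.29, and in the second, with 1 array a group, it was 5.4.

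Its partner Itga6, the integrin alpha 6 chain, did not pass the test. Itga6 read -2.25, -2.09, -2.06 and -1.52 on control arrays 2 to 5 and -2.45, -2.04, -1.31 and -2.06 on Klf4 arrays 2 to 5. The groups overlapped over most of their range. Its log2 difference was 0.02 (95% interval -0.58 to 0.61), and that of a second probe was -0.39. Lamb3, a laminin chain of the skin basement membrane, differed by -0.00 (95% interval -0.53 to 0.52).

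The classical cadherins of the set did not pass either. Cdh1, which encodes E-cadherin, read -4.92, -4.49, -4.75 and -5.74 in controls and -5.94, -5.26, -3.64 and -5.41 with Klf4, for arrays 2 to 5. These were dim signals, well above background on 3 arrays of each group, and their order did not separate the groups. Their log2 difference of -0.09 has a 95% interval of -1.19 to 1.02. Cdh3, which encodes P-cadherin, differed by -0.18 (95% interval -0.62 to 0.25).

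Desmosome and cornified envelope genes divided by member: 2 of 6 rose and the other 4 did not pass, with a median log2 difference of -0.10. Evpl (probe A_64_P065102), a plakin of desmosomes and of the cornified envelope of skin, read -2.24, -2.04, -2.17 and -2.60 on control arrays 2 to 5 and -0.01, -0.54, -1.12 and 0.27 on Klf4 arrays 2 to 5. The groups did not overlap, and Klf4 arrays 2 and 5 were again above arrays 3 and 4. The means were -2.26 ± 0.24 and -0.35 ± 0.61 (SD, n = 4 each), a log2 difference of 1.91 (SE 0.30, limma adjusted p = 0.00850), or 3.76-fold. It was 1.59 within the first scan and 2.87 in the second.

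Jup (probe A_44_P334788) encodes plakoglobin, which links cadherins to the cytoskeleton in desmosomes and adherens junctions. It read -0.08, -0.13, -0.14 and -0.25 on control arrays 2 to 5, and 1.33, 1.17, 0.63 and 1.24 on Klf4 arrays 2 to 5. The controls were nearly level, and the lowest Klf4 array, replicate 4, still lay above all of them. The means were -0.15 ± 0.07 and 1.09 ± 0.31 (SD, n = 4 each), a log2 difference of 1.24 (SE 0.17, limma adjusted p = 0.00459), or 2.37-fold.

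Periplakin, the plakin that pairs with envoplakin, is encoded by Ppl. Ppl read -4.86, -5.46, -4.79 and -4.32 in controls and -4.93, -4.94, -6.27 and -4.97 with Klf4, for arrays 2 to 5. Klf4 replicate 4 stood below the rest, and the log2 difference of -0.42 did not pass (95% interval -1.23 to 0.39, limma adjusted p = 0.765). Pkp2, a plakophilin that binds desmosomal cadherins, read -1.81, -1.71, -1.36 and -2.04 in controls and -2.20, -2.18, -1.79 and -2.87 with Klf4, for arrays 2 to 5. Most Klf4 arrays lay below the controls, but Klf4 replicate 4 lay within their range, and the log2 difference of -0.54 did not pass (95% interval -1.10 to 0.02, limma adjusted p = 0.448). Pkp4, a related protein of cell contacts, differed by -0.12 (95% interval -0.61 to 0.37). The desmosomal cadherin gene Dsc2 differed by -0.08 (95% interval -0.46 to 0.30) and by -0.03 with a second probe.

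**Figure D2:**
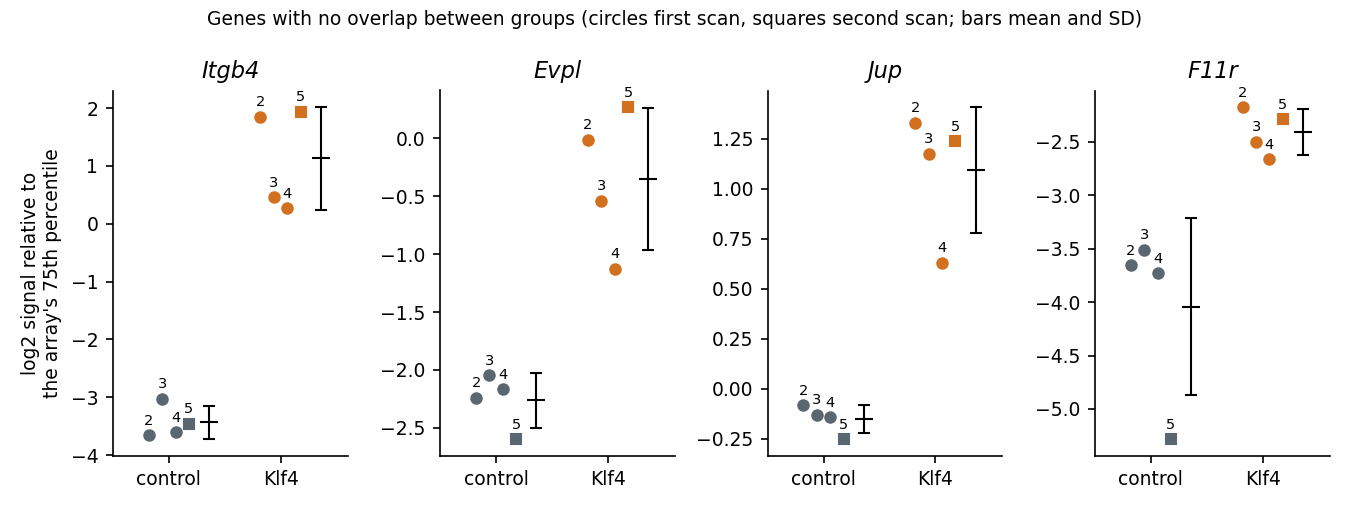
Level on each array of the 4 genes whose groups did not overlap, as log2 signal relative to the 75th percentile of the array, with the replicate number above each point and the mean and SD beside each group. Circles are the first scan and squares the second. Control replicate 5 is the lowest control for Evpl, Jup and F11r, and lies far below the others for F11r, at -5.28.

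None of the 12 tight junction genes passed the test in either direction, and their median log2 difference was 0.06. The count at an unadjusted p under 0.05 was 1 of 12, the gene F11r, which encodes junctional adhesion molecule A. F11r (probe A_44_P482595) read -3.65, -3.51, -3.73 and -5.28 on control arrays 2 to 5 and -2.18, -2.50, -2.66 and -2.29 on Klf4 arrays 2 to 5. The groups did not overlap, and control replicate 5 stood apart below the other controls. The log2 difference was 1.64 (SE 0.38, 95% interval 0.78 to 2.49), with a limma adjusted p of 0.0548 just short of the threshold. A dimmer second probe differed by 1.73. That probe was well above background on 2 control and 3 Klf4 arrays, so it passed the filter on dim signals only through the Klf4 arrays. Without control replicate 5 the difference of F11r was 1.22 and passed (limma adjusted p = 0.00657), and with normexp background correction it was 0.94 and passed (0.00295). Over all 23 alternatives the adjusted p of F11r ran from 0.00238 to 0.171, with 11 past the threshold.

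The claudins, which set the tightness and selectivity of the barrier, did not pass. Cldn3 read 2.49, 2.04, 2.59 and 2.68 on control arrays 2 to 5 and 2.65, 2.60, -0.43 and 2.44 on Klf4 arrays 2 to 5. Klf4 replicate 4 alone lay below the controls, and its difference of -0.64 had a 95% interval of -2.12 to 0.85 (limma adjusted p = 0.818). Without Klf4 replicate 4 it was 0.11, and without both arrays numbered 4 it was 0.16, so its sign rests on that array. Cldn7 read -4.18, -4.11, -4.01 and -3.98 in controls and -4.10, -3.90, -5.12 and -2.75 with Klf4, for arrays 2 to 5. Its controls were nearly level while its Klf4 arrays spread to both sides of them, and the difference was 0.10 (95% interval -0.87 to 1.07). The other claudins differed by -0.37 (Cldn12, limma adjusted p = 0.501), -0.04 (Cldn1), -0.01 (Cldn4, and -0.39 by a second probe), 0.05 (Cldn9) and 0.06 (Cldn23).

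The other membrane and scaffold genes of tight junctions also overlapped between groups. Ocln, which encodes occludin, differed by 0.25 (95% interval -0.42 to 0.92) by its brightest probe and by -0.65 by a dim second probe, so its probes disagree in sign. Marveld2, which encodes tricellulin of contacts where several cells meet, differed by -0.05. Tjp1, which encodes the scaffold protein ZO-1, read 1.25, 1.38, 1.29 and 1.07 in controls and 1.45, 1.43, 2.02 and 1.35 with Klf4, for arrays 2 to 5. Klf4 replicate 4 was the highest, the lowest Klf4 array lay below the highest control, and the log2 difference was 0.31 (95% interval -0.09 to 0.71, limma adjusted p = 0.584). Its relative Tjp3 read -2.71, -2.28, -2.43 and -2.07 in controls and -1.83, -1.90, -2.33 and -1.83 with Klf4. The groups overlapped only through Klf4 replicate 4, and the log2 difference of 0.40 had a 95% interval of -0.02 to 0.82 (limma adjusted p = 0.447).

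**Figure D3:**
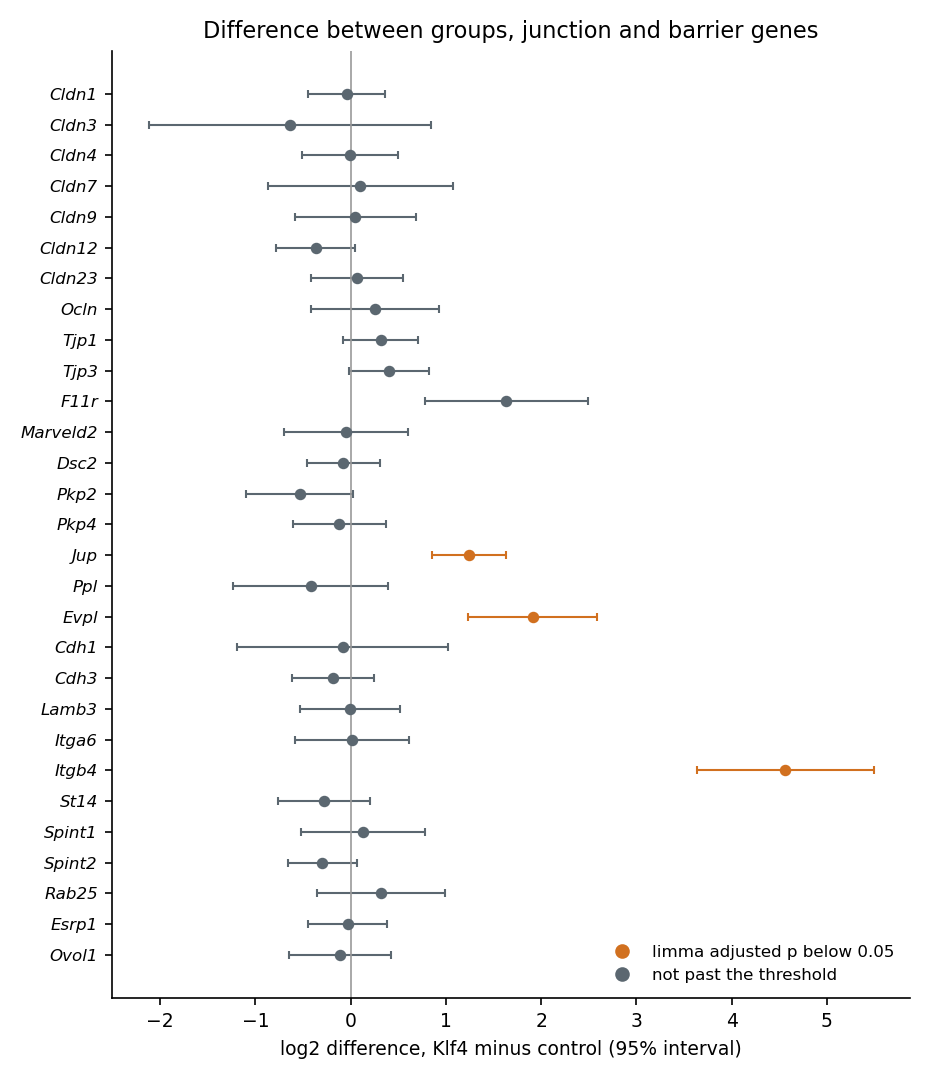
Log2 difference, Klf4 minus control, of each of the 29 genes with its 95% interval from the fit, not adjusted for the number of genes. Intervals of Itgb4, Evpl, Jup and F11r lie above 0, and the first 3 passed the adjusted threshold.

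The genes of surface protease control did not pass. St14 encodes matriptase, a membrane serine protease needed for the skin barrier, and differed by -0.28 (95% interval -0.77 to 0.21). Spint1 and Spint2, which encode the inhibitors of matriptase and related proteases, differed by 0.13 (95% interval -0.52 to 0.78) and -0.30 (95% interval -0.66 to 0.07, limma adjusted p = 0.561). Spint2 read 2.11, 1.82, 2.10 and 1.87 in controls and 1.54, 1.55, 2.05 and 1.59 with Klf4, for arrays 2 to 5. All Klf4 arrays but replicate 4 lay below every control. St14 read 0.88, 0.56, 0.71 and 0.83 in controls and 0.30, 0.44, 1.05 and 0.07 with Klf4, and Klf4 replicate 4 was again the highest of its group, above all controls.

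The regulators also overlapped between groups. Rab25, a small GTPase of apical recycling, differed by 0.32 (95% interval -0.35 to 0.99) and was well above background on 3 control and 2 Klf4 arrays. Esrp1, an epithelial splicing regulator, differed by -0.03 (95% interval -0.45 to 0.38), and Ovol1, a zinc-finger gene of epithelial differentiation, by -0.12 (95% interval -0.65 to 0.42).

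Other genes of the same structures were read from 8 lists drawn up by structure, also with earlier results of these data known. Of 99 listed genes 85 had a probe and 62 passed the filter on dim signals; 10 of the 62 rose and 0 fell, against 3.2% and 0.463% of all features, with a median log2 difference of 0.04. At an unadjusted p under 0.05 there were 20 of the 62, against 11.9% of all features. Of the 10, Nectin4 passed the filter only through the Klf4 arrays. The rises were 4 of 6 hemidesmosome and basement membrane genes, 3 of 10 adherens junction genes, 1 of 2 other desmosome genes, 1 of 15 apical polarity genes and 1 of 5 epithelial transcription and splicing genes. Other tight junction genes (17 tested), serine protease and inhibitor genes (4) and repressors of epithelial genes (3) had 0 past the threshold. The count of rises was 6 without control replicate 3, without control replicate 4 or without Klf4 replicate 5, and 5 without Klf4 replicate 2.

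The hemidesmosome and basement membrane list held the rises nearest in role to Itgb4. Plec encodes plectin, the plakin that ties integrin beta 4 to intermediate filaments. It read -0.48, 0.08, -0.32 and 0.30 on control arrays 2 to 5 and 3.42, 2.95, 3.22 and 3.71 on Klf4 arrays 2 to 5. The groups lay far apart, the log2 difference was 3.43 (SE 0.23, limma adjusted p = 0.000147), and a second probe differed by 3.27.

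The laminin chain genes Lama5 and Lamc1 and the tetraspanin gene Cd151, whose protein binds laminin-binding integrins, were the other rises on that list. Lama5 differed by 1.55 (SE 0.26, limma adjusted p = 0.0122). A dimmer second probe differed by 0.62, with groups that overlapped. That probe was well above background on 2 control and 3 Klf4 arrays, so it passed the filter on dim signals only through the Klf4 arrays. The call of Lama5 was lost with the mean over probes (limma adjusted p = 0.251) and without Klf4 replicate 2 (0.0504). Lamc1 differed by 0.80 (SE 0.13, limma adjusted p = 0.0112) and Cd151 by 0.63 (SE 0.14, limma adjusted p = 0.0409), and Cd151 passed in 8 of 23 alternatives, with an adjusted p up to 0.147. Itgb1 at 0.33 and Lamb2 at 0.08 did not pass.

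In adherens junctions the nectins differed among themselves. Nectin4, an adhesion molecule known from epithelia, read -8.52, -7.82, -7.42 and -7.14 on control arrays 2 to 5 and -1.88, -2.01, -3.41 and -2.41 on Klf4 arrays 2 to 5. It was well above background on 0 control arrays and on all 4 Klf4 arrays, so the controls give no reliable level. Nectin4 passed the filter on dim signals through the Klf4 arrays alone. Set against the lowest signals well above background on the control arrays, it was 11.2-fold higher with Klf4. That floor is the lowest such signal on each array, so the fold is not a strict lower limit. The limma adjusted p of 0.000246 rests on the measured control signals, which were not well above background. With normexp background correction, which raises dim signals, the log2 difference of Nectin4 was 2.02, below the 3.48 against that floor.

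Nectin1 differed by 0.69 (SE 0.13, limma adjusted p = 0.0234), and by -0.02 and 0.37 with other probes, so its probes disagree. Ctnna1, which encodes alpha-E-catenin, differed by 0.66 (SE 0.14, limma adjusted p = 0.0333). Nectin1 passed in 12 of 23 alternatives and Ctnna1 in 11, with adjusted p up to 0.316 and 0.121. Afdn, the nectin-binding scaffold afadin, differed by 0.66 without passing (limma adjusted p = 0.0594), and by 0.12 with a dimmer probe. Cdh2, Ctnnb1, Ctnnd1, Nectin2 and Nectin3 lay between -0.20 and 0.12.

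**Figure D4:**
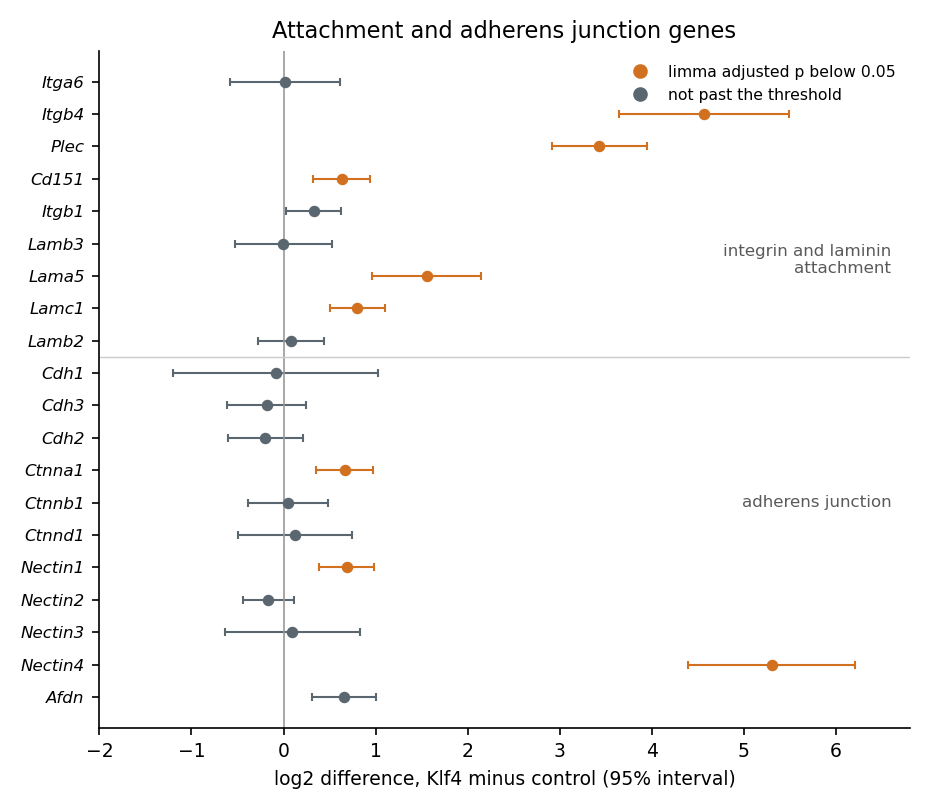
Log2 difference, Klf4 minus control, with its 95% interval from the fit, for integrin and laminin attachment genes above the line and adherens junction genes below it. The point of Nectin4 uses control signals that were not well above background and is not a bound. Itgb4, Plec and Nectin4 lie beyond 3 while Itga6, Cdh1 and Ctnnb1 lie near 0.

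Perp, a membrane protein gene of desmosomes, rose as well. Perp read -3.23, -3.23, -3.17 and -3.67 on control arrays 2 to 5 and -0.05, -0.83, -1.38 and 0.10 on Klf4 arrays 2 to 5. The groups did not overlap, and Klf4 arrays 2 and 5 were the highest, as for Itgb4 and Evpl. The log2 difference was 2.78 (SE 0.32, limma adjusted p = 0.00192). Dsp, which encodes desmoplakin, had no probe that matched, and Dsg3 differed by -0.37.

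Crb3, an apical polarity gene of epithelia, differed by 1.34 (SE 0.21, limma adjusted p = 0.00879). Its call was lost in the first scan alone (limma adjusted p = 0.0537), and with normexp background correction its log2 difference was 0.76. The retinal Crb1 differed by -0.49 with no overlap between groups and did not pass (limma adjusted p = 0.137). Elf3, an epithelial factor of the ETS family, read -0.38, -0.36, -0.32 and -1.72 on control arrays 2 to 5 and 1.20, 0.91, 0.60 and 1.0 on Klf4 arrays 2 to 5. Control replicate 5 stood below the other controls, and all Klf4 arrays lay above them. Its log2 difference was 1.62 (SE 0.32, limma adjusted p = 0.0300), and it passed in 13 of 23 alternatives, with an adjusted p up to 0.108.

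Repressors of epithelial genes did not pass. Snai2 differed by -0.74 with no overlap between groups and a limma adjusted p of 0.0540, was well above background on 4 control and 2 Klf4 arrays, and passed in 5 of 23 alternatives. Zeb2 differed by -0.37 (limma adjusted p = 0.695), and Zeb1 had no probe that matched. Prss8, the protease prostasin that acts with matriptase, differed by -0.04. Grhl2 and Esrp2, regulators of epithelial identity, and Epcam, an epithelial surface molecule, did not pass the filter on dim signals. Grhl2 was well above background on 2 arrays of each group, Esrp2 on 1 of each, and Epcam on 0 control arrays and 1 Klf4 array.

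Markers of other cell types were read beside these genes, as the log2 of the summed signals of a list. The 6 corneal and surface epithelium genes with a probe, among them Krt5, Krt14 and Tp63, summed to 4.32 to 4.56 in controls and 3.97 to 4.52 with Klf4, and 0 of 6 passed. A single Tp63 probe made up 70.4% to 88.9% of that sum, while other Tp63 probes were dim, with control means of -5.40 and -7.43, and the other 5 genes summed to 1.40 to 2.54 and 1.65 to 2.60. The pigment epithelium list summed to 5.13 to 5.98 and 5.02 to 6.52, of which Mitf was 81.8% to 97.4%, 0 of 3 tested genes passed, and its defining genes Tyr and Tyrp1 were at background on all 8 arrays. The lens list summed to -0.14 to 1.87 and -0.05 to 0.31, with 0 of 7 past the threshold and Cryba4 at background on all 8 arrays.

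Other lists held genes past the threshold. The pericyte and fibroblast list summed to 1.96 to 2.27 in controls and 2.90 to 3.21 with Klf4, with 2 of 5 tested genes higher (Col1a1 by 1.36 and Cspg4 by 1.62), and Lum at background on all 8 arrays. Without Col1a1, its brightest gene, that list summed to 0.56 to 1.05 and 0.18 to 0.66. Of 5 endothelium genes 2 were higher, Tek by 2.38 and Esam. Esam was well above background on 0 control arrays and passed the filter on dim signals through the Klf4 arrays alone. Set against the lowest signals well above background on the control arrays, it was 3.52-fold higher, which is not a strict lower limit. The endothelium list summed to 6.56 to 6.84 and 6.46 to 7.28, of which Kdr was 97.8% to 99.5%. The other 4 genes summed to -0.76 to -0.41 and -0.01 to 0.92. Among these 4, Tek and Esam were higher, while Cdh5 differed by -0.01 and Flt1 by -0.02 (0.48 with a second probe) without passing. Of 4 astrocyte genes S100b was higher and the list summed to -1.88 to -0.89 and -0.99 to -0.64. S100b was well above background on 2 control and 4 Klf4 arrays, so it passed the filter on dim signals only through the Klf4 arrays. Of 6 microglia genes C1qb was higher, with sums of 2.11 to 2.52 and 2.34 to 2.58. Without Cx3cr1, its brightest gene, the microglia list summed to -0.01 to 0.86 and 0.89 to 1.62, and Ptprc was at background on all 8 arrays. Of 7 photoreceptor genes 2 were lower, at log2 differences of -0.84 for Crx and -1.10 for Rbp3, and the list summed to 7.2 to 7.6 and 6.54 to 7.59, of which Otx2 was 87.6% to 93.3%. Without Otx2 that list summed to 3.53 to 4.59 in controls and 2.65 to 3.89 with Klf4. All 7 lay below 0, as did 18291 of all 30009 features. For 4 of the 7 every Klf4 array lay below every control, against 4.43% of all features. Of 6 amacrine genes Ptf1a was higher, by 0.68, with sums of 3.44 to 3.78 and 3.75 to 4.15, of which Ptf1a was 50.5% to 80.2%. Without Ptf1a that list summed to 2.12 to 2.67 in controls and 1.54 to 2.33 with Klf4, and 3 of the 6 genes lay below 0. Of 9 retinal progenitor genes 0 passed, with sums of 5.79 to 6.25 and 5.92 to 6.25. The part of these cells in the junction results was not tested, and in such bulk samples fewer cells of a type and less RNA per cell cannot be told apart.

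**Figure D5:**
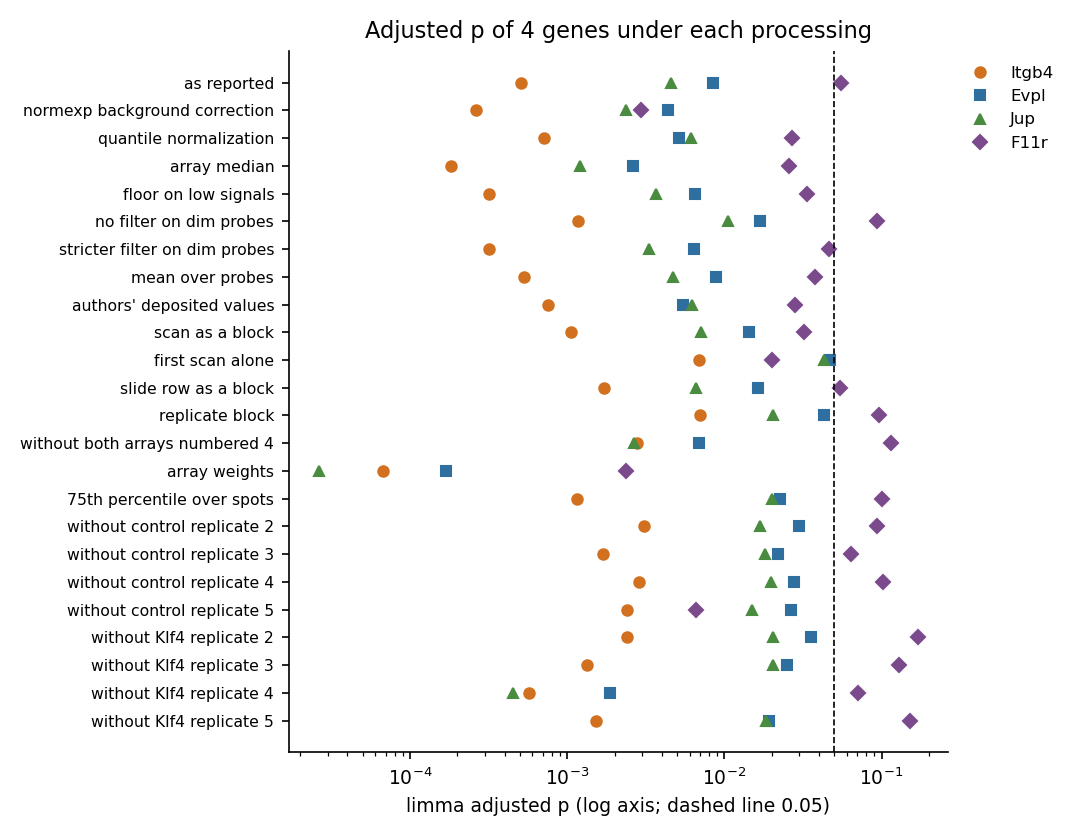
Limma adjusted p, on a log axis, of Itgb4, Evpl, Jup and F11r as reported and under 23 other ways of processing, with the threshold of 0.05 as a dashed line. Itgb4, Evpl and Jup stay left of the line in all 23, with highest values of 0.00699, 0.0471 and 0.0431, and F11r lies left of it in 11.

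The 3 rises among the junction and barrier genes kept their call in all 23 alternatives. The log2 difference ran from 3.86 to 4.85 for Itgb4, from 1.59 to 2.20 for Evpl and from 1.15 to 1.40 for Jup. Weighting the arrays by their quality was the setting that called further genes of the set besides F11r: Tjp3 higher (0.56, limma adjusted p = 0.0178), and Pkp2 (-0.67, 0.0333) and Spint2 (-0.46, 0.0261) lower, where the adjusted p otherwise reached 0.808, 0.796 and 0.853.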

How the data were processed

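Per the file headers, Cy3-labelled RNA was read on Agilent arrays with Feature Extraction 10.7.3.1 (design build rn4). The deposited intensity values are that software's processed signals, background-subtracted and not scaled between arrays, and the deposited flags, unit other, are its control, outlier and background flags. The authors' deposited log2 values, whose method the sources used here do not give, served as an alternative. Without control and outlier spots, log2 signals were averaged per probe, and each array's 75th percentile subtracted. A probe was kept if well above background on at least 3 of 4 arrays of a group, and a gene took the brightest kept probe by mean. RefSeq (GRCr8) gave the names: 21109 of 45598 had 1 symbol, 0 several and 24489 none. The 30009 genes and unnamed features were fitted with limma 3.58.1 in R 4.3.3 (lmFit, eBayes, two-sided, no covariates, Benjamini-Hochberg), checked on simulated data. Normexp, an alternative, used median spot signals, since mean signals were not used here. The members and lists were chosen with earlier results of these data known. Named were all members, and list genes past the threshold without overlap, plus Klf4, Grhl2, Esrp2, Zeb1, Zeb2, Snai2, Epcam, Dsp, Prss8 and Crb3; other genes beside them were named after their values were seen. Figures used matplotlib 3.10.9.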

Additional observations from a re-analysis of the deposited data

Results flagged for a closer look

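In 84 groups of 4 arrays, the gap of the lowest or highest array to its neighbour was divided by the range of the group and set against Dixon's 95% critical value. It passed in 15, 7 of them on Klf4 replicate 4 and 5 on control replicate 5, and chance flags about 1 group in 20. Klf4 replicate 4 was the lowest Klf4 array for Cldn3 (0.9324), Cldn4 (0.8936), Tjp3 (0.8635) and Ppl (0.9679), and the highest for Tjp1 (0.8471), Spint2 (0.9036) and Ovol1 (0.8292). Control replicate 5 was the lowest control for Cldn9 (0.9364), F11r (0.8774), Lamb3 (0.8561), Perp (0.8632) and Elf3 (0.9564). The other 3 were low values of Pkp4 on Klf4 replicate 2 (0.8654), and of Cdh3 (0.8658) and Spint1 (0.9018) on Klf4 replicate 5. Klf4 replicate 4 had the lowest share of gene spots well above background, 72.1%, and was outside the scanner software's quality limits. Control replicate 5 had the lowest 75th percentile of gene signals, 2399, and belongs to the second scan. The part of either in these values was not tested.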

How the results depend on the processing

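Over 23 alternatives the members numbered 3 higher and 0 lower, or 4 higher where F11r passed, except with array weights (5 higher, 2 lower), and leaving out 1 array gave 3 to 4 higher and 0 lower. No called gene reversed. The other junction genes numbered 10 higher and 0 lower, and 6 higher without a filter on dim probes, in the first scan alone or with the 75th percentile taken over spots, a setting chosen after seeing the data. Those lower numbered 1 with the array median, 1 with the stricter filter, 4 with array weights and 1 with scan as a block. Leaving out 1 array gave 5 to 11 higher and 0 to 1 lower. Of all features, 960 were higher and 139 lower. Array weights gave 1845 and 1268, the first scan alone 613 and 50, scan as a block 1147 and 254, no filter 747 and 70, and leaving out 1 array 569 to 1215 and 32 to 407. The replicate block gave 3 members higher and 0 lower, and 842 and 101 of all features. Under it Cd151, Elf3 and Nectin1 did not pass. Deviations of same-numbered arrays correlated at 0.355, 0.243, 0.0608 and 0.551. For controls 2, 3 and 5 the same-numbered Klf4 array was the best match, and control 4 correlated best with Klf4 2 (0.214). The labels state no pairing, so the numbers were not taken to pair samples in the main fit. Dim signals limit Cldn4, Cldn7, F11r, Marveld2, Ppl, Cdh1 and Rab25, each well above background on fewer than 4 arrays of a group.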

Other observations

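Gene order in the RefSeq table set some of these genes near each other. Itgb4 and Evpl have 11 protein-coding genes between them, of which 10 were tested. Of the 10, Trim47, which encodes a tripartite motif protein, rose by 3.00 on the log2 scale and 0 fell, and the lowest difference was -0.08. Nectin4 and F11r have 3 between them, and the 2 tested, at -0.16 and 0.06, did not pass. Cldn3 and Cldn4, Cdh3 and Cdh1, and Ocln and Marveld2 are direct neighbours with 0 protein-coding genes between them, and neither gene of any of these pairs passed.

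Other tight junction genes with no overlap between groups were Cldn10, at a log2 difference of 0.50 (limma adjusted p = 0.196), and Magi3, at 0.39 (limma adjusted p = 0.175) and 0.07 with a dimmer probe. They are 2 of 17 tested, against 5.69% of all features. Both genes were named after their values were seen. Cldn10 passed the filter on dim signals only through the Klf4 arrays, being well above background on 2 control and 3 Klf4 arrays.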
